A study of Mus musculus with 2 samples.

Results

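The barcodes described here are droplets of a mouse bone marrow single-cell experiment in which over 10% of all unique molecular identifiers (UMIs, tags that each mark a captured transcript) came from the 37 genes of the mitochondrial genome. They were chosen by that share alone, with no filter on depth, cell type or doublets. They numbered 1800 of 29327 barcodes, 733 of 15848 in the wild-type (WT) library and 1067 of 13479 in the Nat10 conditional knockout (cKO) library. They are called high-mitochondrial barcodes below, and the 27527 barcodes at or under 10% are called the remaining barcodes.

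The study asked what loss of Nat10, the enzyme that places N4-acetylcytidine on RNA, does to blood stem and progenitor cells. Bone marrow of C57BL/6 mice was depleted of cells carrying mature lineage antigens with antibodies and magnetic separation. The lineage-negative (Lin-) cells of each genotype were then run as 1 droplet library with 10x Genomics 3′ chemistry. The series text names 5 mice, but the files hold no map from barcode to mouse, so each genotype is 1 sample. No difference between WT and cKO below therefore has a replicate check, and the intervals given cover counting error only. The sources used here do not give the Cre driver of the knockout, the excised part of Nat10 or the age of the mice.

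Mitochondria carry a small circular genome that encodes 13 subunits of the respiratory chain, the 2 ribosomal RNAs of the mitochondrial ribosome and a set of tRNAs. Every other mitochondrial protein is encoded in the nucleus and imported. In droplet data a high mitochondrial share is widely used as a mark of cells that lost cytoplasmic RNA or are dying, where transcripts inside mitochondria remain. Red cell progenitors are also rich in mitochondria, which make haem, and later remove them.

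The libraries held 288303275 UMIs for WT and 271499717 for cKO, and no barcode in the files had fewer than 500 UMIs. The 2 libraries shared 67 barcode sequences. No barcode was high-mitochondrial in both, and 3 WT and 6 cKO high-mitochondrial barcodes shared their sequence with any barcode of the other library. A doublet caller marked 8 of the 733 WT and 20 of the 1067 cKO high-mitochondrial barcodes, 1.09% and 1.87%, against 4.10% and 3.25% of the remaining barcodes. Most high-mitochondrial barcodes that matched any marker list matched a progenitor or red cell list, with the counts given below.

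High-mitochondrial barcodes made up 4.63% of the WT library (95% exact binomial interval 4.303 to 4.96) and 7.92% of the cKO library (7.47 to 8.38). The cKO share was 1.71 times the WT share (1.56 to 1.88). The ratio depended on depth, counted as nuclear UMIs, that is all UMIs outside the 37 mitochondrial genes. It was 2.52 (2.10 to 3.03) among barcodes with 500 to 1000 nuclear UMIs, where 7.43% of WT and 18.7% of cKO barcodes were high. It was 3.07 (2.37 to 3.998) from 1000 to 2000. From 3000 to 5000 the shares were 8.82% and 9.19%, with a ratio of 1.04 (0.754 to 1.45), so no difference was detectable there. From 5000 to 10000 nuclear UMIs they parted again, at 5.89% and 11.2%, a ratio of 1.90 (1.41 to 2.58). Among barcodes of 20000 or more nuclear UMIs none was high-mitochondrial, 0 of 5968 in WT and 0 of 5717 in cKO, which allows shares of up to 0.0503% and 0.0525%, taking 3 barcodes as the limit for a count of 0 here and below.

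The lowest depth class is set in part by how the barcodes entered the files. With a floor of 500 total UMIs, a barcode with fewer nuclear UMIs than that could be present only by way of its mitochondrial UMIs. Accordingly 80.4% of WT and 85.8% of cKO barcodes under 500 nuclear UMIs were high-mitochondrial, and these 229 and 273 barcodes are 31.2% and 25.6% of the group.

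**Figure D1:**
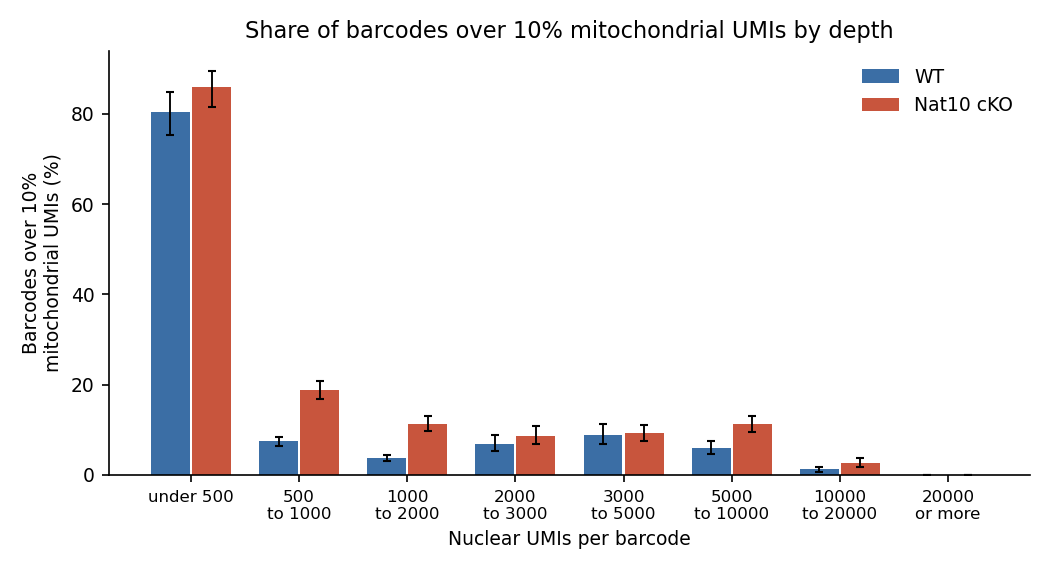
Share of barcodes over 10% mitochondrial UMIs (vertical axis, percent) in classes of nuclear UMIs per barcode (horizontal axis), for the WT and Nat10 cKO libraries; error bars are 95% exact binomial intervals. The cKO bar is above the WT bar by more than both intervals at 500 to 1000, 1000 to 2000 and 5000 to 10000 nuclear UMIs, and no barcode with 20000 or more was over 10%.

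High-mitochondrial barcodes were shallow. Their median was 1353 UMIs and 484 genes in WT and 1590 UMIs and 623 genes in cKO, against 10514 and 16348.5 UMIs in the remaining barcodes. Both parts of the mitochondrial share differed from the remaining barcodes. The median of mitochondrial UMIs was 471 in WT and 492 in cKO, against 164 and 246. The median of nuclear UMIs was 747 and 967, against 10284 and 16068. The group thus held 9.06% of the mitochondrial but 0.510% of the nuclear UMIs of the WT library, and 14.2% and 0.947% of those of the cKO library. A filter often applied to such data, at least 1000 UMIs and 500 genes, would keep 341 of the 733 WT barcodes (46.5%) and 595 of the 1067 cKO barcodes (55.8%).

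The 10% threshold did not fall at a gap. Just under it, at 9 to 10%, lay 43 WT and 84 cKO barcodes with medians of 3952 and 4468 nuclear UMIs. Just over it, at 10 to 11%, lay 47 and 76 barcodes with medians of 5396 and 3503.5. Their nuclear RNA was alike as well. Genes of cytosolic ribosomal proteins took medians of 4.01% (WT) and 4.99% (cKO) of nuclear UMIs just under the threshold and 3.43% and 5.34% just over it.

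Content and depth differed more widely inside the group, which is described here in ranges of 10 to 30% and over 30% mitochondrial UMIs, a boundary chosen after the values were seen. The change across the group was gradual. At 10 to 20%, 20 to 30% and 30 to 50%, median nuclear UMIs were 2787, 1133 and 514 in WT and 3504, 1314.5 and 504 in cKO. Ribosomal protein genes took medians of 4.56%, 10.9% and 15.2% of nuclear UMIs in WT, with the larger step at 20%, and 5.93%, 9.97% and 19.7% in cKO, with the larger step at 30%. Between 10 and 30% there were 349 WT and 608 cKO barcodes, with medians of 2380 and 2662 nuclear UMIs. Above 30% there were 384 and 459, with medians of 489 and 488. The 30% line therefore separates barcodes that differ in depth as well as in content. In the 10 to 30% barcodes, cytosolic ribosomal protein genes, whose short and abundant mRNAs fill the cytoplasm, took a median of 5.67% (WT) and 6.90% (cKO) of nuclear UMIs. The remaining barcodes held 17.3% and 22.6%, and the barcodes over 30% held 15.6% and 20.4%.

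Genes spanning over 100 kb, whose primary transcripts are mostly intron, showed the opposite pattern. They took 24.4% (WT) and 24.6% (cKO) of nuclear UMIs in the 10 to 30% barcodes, against 13.8% and 10.8% in the remaining barcodes and 10.2% and 8.49% over 30%. The sources used here do not say whether the authors counted intron reads. Rn18s-rs5, a gene model for 18S ribosomal RNA, was highest over 30%, at 19.3% (WT) and 13.7% (cKO) of nuclear UMIs. It took 9.89% and 7.74% in the 10 to 30% barcodes and 3.06% and 1.42% in the remaining ones. Rn18s-rs5 was also high in shallow barcodes of low mitochondrial share. At 500 to 1000 nuclear UMIs its median was 18.1% (WT) and 14.6% (cKO) in high-mitochondrial and 12.7% and 9.10% in the remaining barcodes. Malat1, a long noncoding RNA held in the nucleus, had medians of 0.593% and 0.639% at 10 to 30%, 0.394% and 0.256% over 30%, and 0.398% and 0.298% in the remaining barcodes.

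The barcodes at 10 to 30% thus held little ribosomal protein mRNA and much long-gene RNA, and those over 30% were closer to the remaining barcodes in both. The same shift was present below the threshold. At 5 to 10% mitochondrial UMIs, ribosomal protein genes already took only 8.27% (WT) and 10.7% (cKO) and long genes 20.7% and 18.3%. The size of the contrast depended on depth. Among barcodes of 3000 to 10000 nuclear UMIs, ribosomal protein genes took medians of 3.32% in the 127 WT and 4.68% in the 252 cKO high-mitochondrial barcodes, against 12.0% and 16.1% in the remaining ones. At 500 to 1000 nuclear UMIs they took 13.5% and 16.1% against 15.5% and 18.8%, and there long genes took 11.6% against 12.7% in WT, the opposite direction, and 9.99% against 8.95% in cKO. The median of mitochondrial UMIs at 3000 to 10000 nuclear UMIs was 887 and 968, against 95 and 84.

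**Figure D2:**
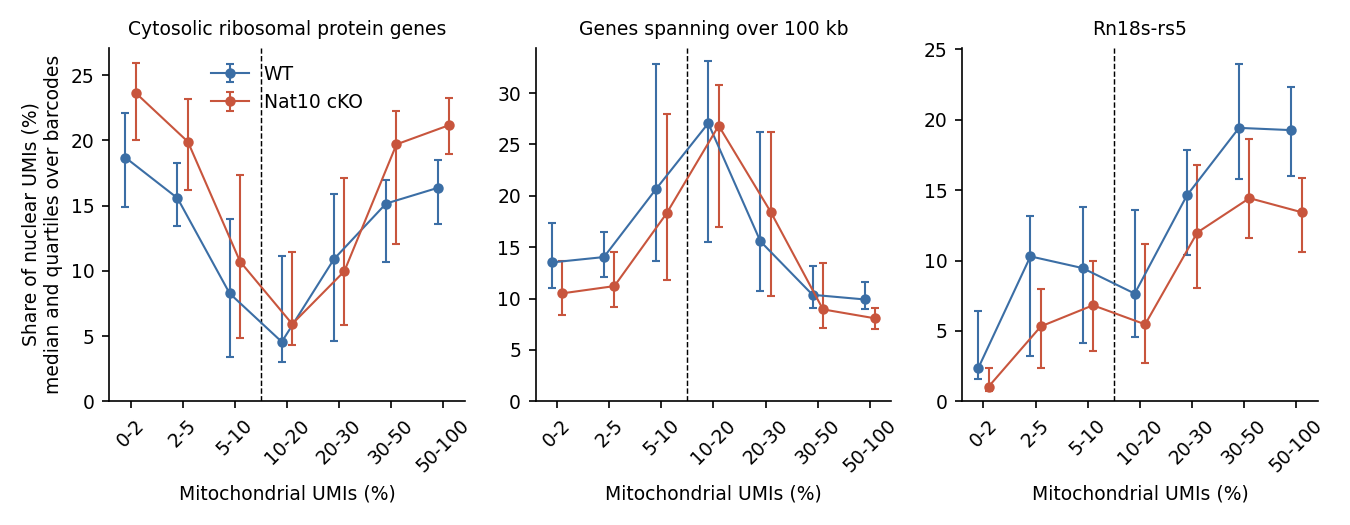
Share of nuclear UMIs (vertical axes, percent) in cytosolic ribosomal protein genes, in genes spanning over 100 kb and in Rn18s-rs5, by class of mitochondrial share (horizontal axes, percent of all UMIs); points are medians and bars quartiles over the barcodes of each library, and the dashed line marks 10%. Ribosomal protein genes were lowest and long genes highest at 10 to 20%, and Rn18s-rs5 was highest over 30%, in both libraries.

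Within the mitochondrial RNA, the summed UMIs of high-mitochondrial barcodes held more ribosomal RNA and less messenger RNA than those of the remaining barcodes. mt-Rnr1 and mt-Rnr2, the 12S and 16S ribosomal RNAs, together held 49.5% of mitochondrial UMIs in WT high-mitochondrial barcodes and 53.3% in cKO ones. In the remaining barcodes they held 36.3% and 34.1%, a log2 difference of 0.45 in WT and 0.64 in cKO. mt-Rnr2 alone held 31.4% against 23.0% in WT and 34.4% against 21.8% in cKO. This order depended on depth. At 3000 to 10000 nuclear UMIs the median ribosomal RNA share was 47.2% (WT) and 52.8% (cKO) in high-mitochondrial and 50% and 56.3% in the remaining barcodes, and at 500 to 1000 it was 48.3% and 54.6% against 60.0% and 70.8%. All 13 protein-coding genes had a lower share of mitochondrial UMIs in the high-mitochondrial barcodes of both libraries. The log2 differences ran from -0.16 (mt-Nd6) to -0.58 (mt-Co1) in WT and from -0.17 (mt-Nd6) to -0.73 (mt-Co1) in cKO. mt-Co1 encodes the catalytic core of cytochrome c oxidase, and mt-Nd6 is the only one of them read from the light strand. The tRNA genes together held 0.0339% and 0.0230% of mitochondrial UMIs, 161 and 163 UMIs, too few to compare gene by gene.

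The most abundant mitochondrial mRNAs were those of cytochrome b and of complex I. mt-Cytb held 13.7% of mitochondrial UMIs in WT and 13.3% in cKO high-mitochondrial barcodes. The complex I genes mt-Nd1, mt-Nd2 and mt-Nd4 held 11.3%, 8.64% and 7.32% in WT and 10.6%, 7.93% and 6.69% in cKO. Lower in both were mt-Nd5 (2.05% and 1.84%), mt-Atp6 (1.20% and 0.989%), mt-Nd3 (0.789% and 0.916%), mt-Co2 (0.601% and 0.481%) and mt-Co3 (0.600% and 0.479%). mt-Atp8 overlaps mt-Atp6 and mt-Nd4l overlaps mt-Nd4, so reads may be split between the genes of each pair.

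Between the genotypes the mitochondrial genes differed little. Among genes with over 0.1% of mitochondrial UMIs, mt-Atp8, a subunit of ATP synthase, had the lowest log2 ratio of cKO over WT in high-mitochondrial barcodes, at -0.53. It was followed by the cytochrome c oxidase genes mt-Co3, mt-Co1 and mt-Co2 at -0.33, -0.32 and -0.32, and by mt-Atp6 at -0.29. The highest was mt-Nd3, of complex I, at 0.22. The remaining barcodes had ratios of the same sign for these 6 genes, among them -0.50 for mt-Atp8 and 0.30 for mt-Nd3. The sign was opposite for the most abundant mRNAs. mt-Cytb, mt-Nd1, mt-Nd2 and mt-Nd4 were at -0.04, -0.09, -0.12 and -0.13 in high-mitochondrial barcodes. In the remaining barcodes they were at 0.14, 0.07, 0.03 and 0.07. The ribosomal RNAs together were at 0.11 in high-mitochondrial and -0.09 in the remaining barcodes, but the sign in the remaining barcodes turned with depth: their share was 54.5% in cKO and 48.8% in WT at 3000 to 10000 nuclear UMIs, and 69.9% and 60.04% at 500 to 1000.

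Lineage was read from 19 lists of marker genes. A barcode was placed with the list of highest score, a mean over its markers of normalised expression, if that score reached 0.2 and at least 3 UMIs came from at least 2 markers. Such a placement is a range on a score and not a cell type. A placement was close if the best score lay within 0.05 of the cut or led the second list by under 0.05. This held for 37.8% of WT and 35.4% of cKO high-mitochondrial barcodes, and for 27.2% and 22.2% of the remaining ones. A list could be given to 454 of the 733 WT barcodes and to 572 of the 1067 cKO barcodes, and the other 279 and 495 matched none.

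Barcodes placed with the erythroid progenitor list (Gata1, Klf1, Epor, Tfrc and others) made up 20.6% of the WT group (151; interval 17.7 to 23.7) and 33.5% of the cKO group (357; 30.6 to 36.4). Those placed with the granulocyte-monocyte progenitor (GMP) list, of primary granule genes such as Mpo and Elane, made up 207 in WT and 110 in cKO. Those placed with the erythroblast list, of haemoglobin and late red cell genes, made up 61 and 52. Stromal placements numbered 5 and 23, monocyte 11 and 5, lymphoid progenitor 3 and 9, and megakaryocyte 4 and 4. The stem and multipotent progenitor list took 0 of the WT and 2 of the cKO barcodes. The placements moved with depth. With every barcode thinned to 500 nuclear UMIs, which left out 229 WT and 273 cKO barcodes, the erythroid progenitor list took 12.1% and 12.7%. In thinned profiles this list thus did not take a clearly larger part of the cKO group.

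**Figure D3:**
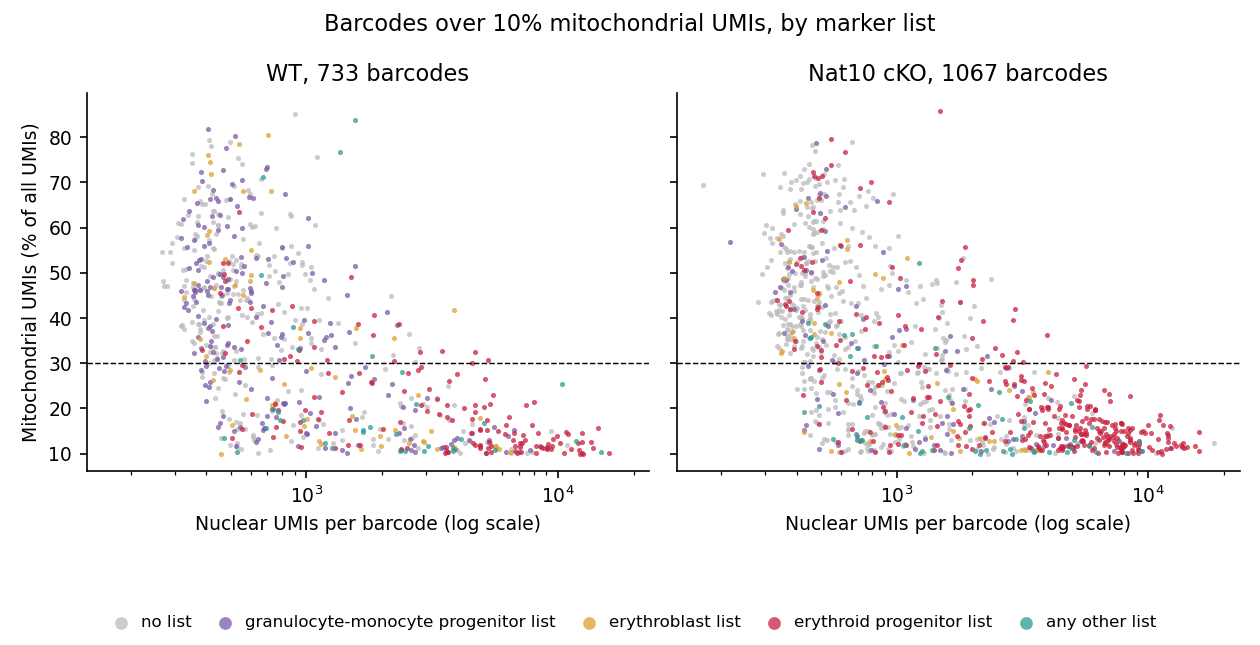
Nuclear UMIs per barcode (horizontal axis, log scale) against mitochondrial share (vertical axis, percent of all UMIs) for each high-mitochondrial barcode of the WT and cKO libraries; colours give the marker list and the dashed line marks 30%. Barcodes of the erythroid progenitor list fill the lower right of both panels, and most barcodes over 30% lie near 500 nuclear UMIs with the GMP list or none.

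The erythroid progenitor and unplaced shares differed between the ranges in both libraries, and the GMP share in WT. Of the 10 to 30% barcodes, 34.1% in WT and 46.4% in cKO went to the erythroid progenitor list and 23.2% and 10.0% to the GMP list. Of the barcodes over 30%, 8.33% and 16.3% went to the erythroid progenitor list, 32.8% and 10.7% to the GMP list, and 49.7% and 65.8% to none. Erythroid progenitor placements had medians of 3648 (WT) and 3922 (cKO) nuclear UMIs and GMP placements 598 and 912.5. Of the barcodes over 30%, 200 in WT and 244 in cKO had fewer than 500 nuclear UMIs, where few markers can be seen.

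Free RNA in droplets gives every barcode some UMIs of abundant markers, so the same lists were read in barcodes that should lack them. At 500 nuclear UMIs, at least 3 GMP marker UMIs were found in 31.0% of WT and 14.4% of cKO barcodes over 30%, of the 184 and 215 deep enough to be thinned. The remaining barcodes placed with the T, NK and innate lymphoid list had them in 1.10% in WT and in 0 of 249 barcodes in cKO, which allows up to 1.20%. Their median depths were 6306.5 and 4980 nuclear UMIs. GMP-placed remaining barcodes had them in 81.3% and 80.6%. In UMIs per 1000000 nuclear UMIs (CPM), GMP markers stood at 4345 and 2474 over 30%, at 695 and 487 in the lymphoid barcodes, and at 20778 and 17650 in the GMP-placed ones. The level over 30% lay between those of the lymphoid and the GMP-placed barcodes. Both of these sets were placed by marker scores, so their GMP levels follow in part from the placement. The lymphoid barcodes were also deeper before thinning, so they do not give the free RNA level of shallow barcodes. All remaining barcodes pooled stood at 7426 and 4666. Whether these UMIs came from the cell or from free RNA was not tested.

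**Figure D4:**
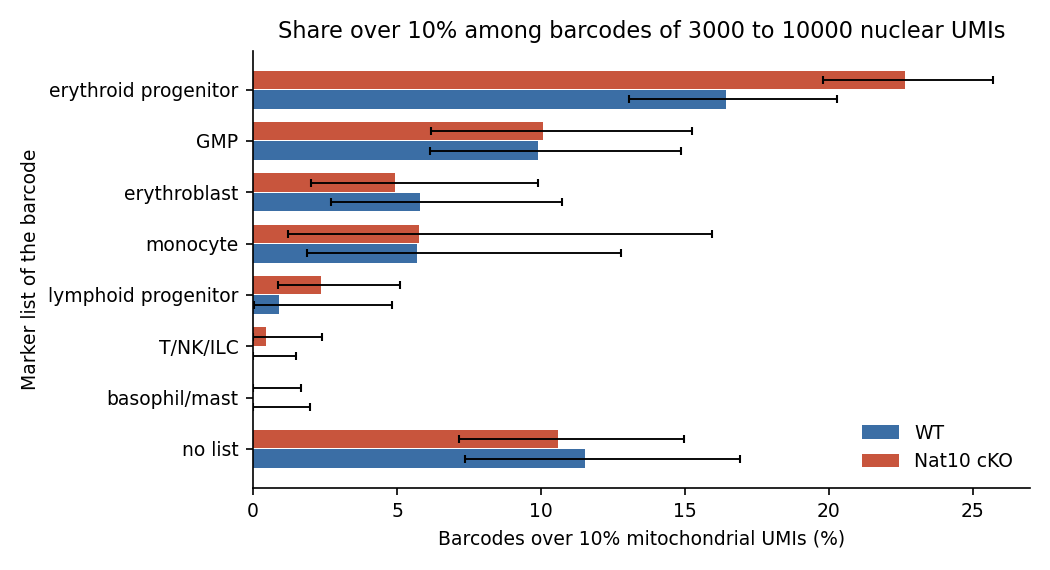
Share of barcodes over 10% mitochondrial UMIs (horizontal axis, percent) among barcodes of 3000 to 10000 nuclear UMIs, by marker list (vertical axis) and library; error bars are 95% exact binomial intervals. Erythroid progenitor barcodes had the highest shares, 16.4% in WT and 22.6% in cKO, and no basophil and mast cell barcode was over 10%.

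Turned around, the share of barcodes over 10% differed by list. It was 4.05% (WT) and 6.97% (cKO) among erythroid progenitor-placed barcodes, a ratio of 1.72 (1.42 to 2.10). For the GMP list it was 4.07% and 4.12%, for the erythroblast list 3.96% and 5.06%, and for the monocyte list 1.10% and 0.977%. Barcodes with no list had higher shares than these, 12.6% and 24.3%, a ratio of 1.92 (1.66 to 2.23). With placement on profiles thinned to 500 nuclear UMIs, the ratio was 1.56 (1.13 to 2.19) for the erythroid progenitor list. For no list it was 1.86 (1.62 to 2.14). Depth differs between lists, so the shares were also taken at 3000 to 10000 nuclear UMIs. There 70 of 426 WT and 183 of 808 cKO erythroid progenitor barcodes were high, 16.4% and 22.6%, with a ratio of 1.38 (1.04 to 1.84). GMP barcodes had 9.90% and 10.1%, and those with no list 11.5% and 10.6%. Basophil and mast cell barcodes had 0 of 186 and 0 of 221, which allows 1.61% and 1.36%, and T, NK and innate lymphoid barcodes had 0 of 247, which allows 1.21%, and 1 of 230.

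In erythroid progenitor-placed barcodes the amount of mitochondrial RNA differed less than the amount of nuclear RNA. High-mitochondrial ones held medians of 827 (WT) and 937 (cKO) mitochondrial UMIs, against 590 and 576 in the remaining ones, 1.40 and 1.63 times as many. Their nuclear UMIs were 3648 and 3922 against 33339 and 34307.5, so that the remaining barcodes held 9.14 and 8.75 times as many. Ribosomal protein genes took 4.08% and 6.16% of the nuclear UMIs of high-mitochondrial ones, against 20.4% and 23.8%. Both amounts enter the rule that chose the barcodes, and their order was the same in 2 other lists. For GMP placements the ratios were 3.33 and 1.30 for mitochondrial UMIs, and 8.05 and 29.7 for nuclear UMIs. For erythroblast placements they were 3.33 and 4.31, and 7.93 and 4.69.

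Sums of markers over all high-mitochondrial barcodes gave another view, which needs no placement. The erythroid progenitor list summed to 2802 CPM in WT and 3054 in cKO, 1.07 and 1.06 times the remaining barcodes. The GMP list summed to 0.36 and 0.31 times, the neutrophil list to 0.32 and 0.18 times, the basophil and mast cell list to 0.33 and 0.17 times, and the erythroblast list to 0.59 and 0.70 times. The stem and multipotent progenitor list stood higher, at 1.46 and 1.995 times, but rested on 1 gene. Mllt3, a chromatin reader active in stem cells and in red cell and platelet precursors, gave 548 and 577 CPM of the list's 676 and 699. Without it, the list stood at 0.52 and 0.88 times the remaining barcodes. Mllt3 was singled out after its values were seen, and it spans 263 kb. Procr, the endothelial protein C receptor, had 0 UMIs in the high-mitochondrial barcodes, and only 0.611 and 0.307 CPM in the remaining ones. Hlf, a transcription factor gene of stem cells, stood at 9.01 and 5.55 CPM against 22.1 and 8.26.

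The erythroid lists were mixed in the same way. Ank1, which ties the red cell skeleton to the membrane and spans 176 kb, stood at 714 (WT) and 711 (cKO) CPM in high-mitochondrial barcodes against 302 and 266. Without it, the erythroid progenitor list summed to 0.90 and 0.90 times the remaining barcodes. Klf1, a red cell transcription factor gene spanning 3.4 kb, stood at 50.6 and 77.7 against 112 and 145. Among late genes, Hbb-bs, a beta globin gene spanning 1.56 kb, stood at 1069 and 746 against 2385 and 1465. Of these 3 red cell genes, the long one was thus higher and the short ones lower.

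The nuclear RNA of the group was compared with that of the remaining barcodes over genes with at least 100 UMIs and a mean of 50 CPM, using summed UMIs. This contrast follows from the choice of barcodes and is given as a description. In WT, 593 of 4160 genes were at least 2-fold higher (14.3%) and 690 at least 2-fold lower (16.6%). In cKO, 1121 of 4197 were higher (26.7%) and 752 lower (17.9%). In both libraries, 553 of 3934 genes were at least 2-fold higher (14.1%) and 617 at least 2-fold lower (15.7%). These counts belong to the deeper barcodes of the group, which supply most of its UMIs. With each barcode given equal weight they were 16 and 77 in WT and 53 and 109 in cKO. When ratios were centred on their median, 193 genes were higher and 935 lower in WT, and 270 and 1122 in cKO, so the split between directions depends on the scaling, which moves the median of all genes by 0.29 and 0.44. At 10 to 30%, 22.2% of genes were higher and 18.1% lower in WT (31.4% and 19.3% in cKO), against 1.08% and 4.24% over 30% (1.06% and 2.76% in cKO). Among barcodes of 3000 to 10000 nuclear UMIs, 820 of 4307 genes were higher (19%) and 695 lower (16.1%) in WT, and 1057 of 4401 higher (24%) and 696 lower (15.8%) in cKO.

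The genes highest in both libraries were of 2 kinds. AY036118, Mir6236 and Rn18s-rs5 were high in both ranges of mitochondrial share. AY036118 stood at 1054 (WT) and 804 (cKO) CPM against 78.1 and 67.3, log2 ratios of 3.75 and 3.58. Mir6236 stood at 4785 and 3762 against 690 and 383. Rn18s-rs5 stood at 98024 and 75785 against 22802 and 11725, log2 2.10 and 2.69. At matched depth the gap was smaller, with 6.21% against 4.92% of summed nuclear UMIs in WT and 4.98% against 3.21% in cKO at 3000 to 10000 nuclear UMIs, and 19.7% against 12.5% and 15.9% against 9.47% at 500 to 1000. Ribosomal RNA is encoded by many near-identical copies, so the locus of the Rn18s-rs5 UMIs is uncertain. Cdk8, a kinase of the Mediator complex, and Camk1d, a calcium-dependent kinase, followed the same course. Their log2 ratios were 3.60 and 3.16 over 30% in WT, above the 1.75 and 1.89 of the 10 to 30% barcodes.

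The other highest genes belonged to the 10 to 30% barcodes. Angpt2, a vessel growth factor, stood at 135 (WT) and 140 (cKO) CPM in the group against 18.0 and 18.6, log2 2.92 in both. Its log2 ratio was 3.17 and 3.08 at 10 to 30% but -0.06 and 0.16 over 30%. Lrrc4, a synaptic adhesion protein gene, stood at 467 and 431 against 74.8 and 69.1. Filip1l stood at 225 and 289 against 51.7 and 62.1. Nfia, a transcription factor of the red cell lineage, stood at 2526 and 2795 against 627 and 716, and Slc25a21, a mitochondrial carrier gene, at 5544 and 5528 against 1446 and 1439. These last 3 genes span 220, 346 and 485 kb.

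The lowest genes were short. The floor was set on the 2 sums together, so a gene low in the group could enter through the remaining barcodes alone. UMIs of the genes named here in high-mitochondrial barcodes ran from 27 (Jchain) to 774 (Rpl17) in WT. In cKO they ran from 52 (Serpinb1a) to 1553 (Rpl17). Jchain, the joining chain of secreted antibodies, stood at 18.7 (WT) and 37.6 (cKO) CPM against 110 and 245, log2 -2.52 and -2.69. Elane, neutrophil elastase, stood at 392 and 204 against 1761 and 930, log2 -2.17 and -2.19. The histone gene H2ac24, at -2.39 and -2.28, and Rpl17, a ribosomal protein gene, at -2.04 and -2.05, were lower by as much. Ndufs8, a nuclear-encoded subunit of complex I, was at -2.05 and -2.10. Also among the lowest were the proteasome gene Psmb8, the DNA repair gene Apex1, and Serpinb1a, Plac8 and Lgals1, all of which were between -2.002 and -2.42 in both libraries.

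By gene list, the cytosolic ribosome differed as a block. All 79 ribosomal protein genes were at least 2-fold lower in both libraries, with median log2 ratios of -1.70 and -1.67 where all genes with enough UMIs had medians of 0.26 and 0.32. The list's medians were -0.57 and -0.65 with each barcode given equal weight, and -1.14 and -1.23 against remaining barcodes matched on depth. Nuclear genes for mitochondrial proteins were lower too, while the mitochondrial genome's own share is high by the choice of barcodes. Of all genes tested, 16.6% (WT) and 17.9% (cKO) were at least 2-fold lower, at a higher floor than the 50 UMIs of list members. Complex I genes were at least 2-fold lower for 27 of 36 in WT and 28 of 36 in cKO (medians -1.30 and -1.31). Of the 39 measured genes of complexes II to V, 32 and 34 were lower by that much (-1.38 and -1.41), as were 33 and 39 of 54 mitochondrial ribosome genes (-1.19 and -1.24). With each barcode given equal weight the medians of these 3 lists lay between -0.29 and -0.49, and against remaining barcodes matched on depth between -0.55 and -0.93. Among the exceptions were Sdha, the flavoprotein of complex II, at 0.02 and 0.05, and Ndufs1 at 0.31 in WT. Short genes in general were low too. Genes spanning under 3 kb had medians of -1.49 (WT) and -1.49 (cKO), and those of 3 to 10 kb -1.25 and -1.24. The lists were not compared with genes of like span.

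Stress and death lists were mixed. Apoptosis regulators had medians of -0.03 and 0.36, the latter turning to -0.66 against remaining barcodes matched on depth, p53 targets 0.18 and 0.09, and mitophagy and mitochondrial dynamics genes -0.20 and -0.16. The immediate early and heat shock list lay well below all genes, with medians of -1.02 and -0.80, and at -2.15 and -2.29 against remaining barcodes matched on depth. Integrated stress response genes had medians of -0.88 and -0.58, and -0.50 and -0.25 with each barcode given equal weight. Nuclear-retained RNAs were higher, with 5 of 11 measured at least 2-fold higher in WT and 6 of 10 in cKO. That held for 14.3% (WT) and 26.7% (cKO) of all genes tested, at a higher floor of UMIs. The list had medians of 0.92 and 1.13. These medians were 0.36 and 0.11 with each barcode given equal weight, and 0.71 and 0.07 against remaining barcodes matched on depth. Malat1 stood at 7331 and 7700 CPM against 4671 and 3771, log2 0.65 and 1.03, but at -0.08 and -0.18 against remaining barcodes matched on depth. Neat1, the scaffold of paraspeckles, did not share this, at 193 and 168 against 235 and 157.

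The ratios were ordered by the span of the gene. Genes spanning under 3 kb had median log2 ratios of -1.49 in WT and -1.49 in cKO, and those over 300 kb had 1.02 and 1.28. Of the 182 shortest genes in WT 2.20% were above 0, against 93.0% of the 142 longest. The slope was steeper at 10 to 30%, where the medians in WT ran from -1.80 to 1.14. Over 30% the shortest and longest classes had -0.57 and -0.19 in WT and -0.52 and 0.23 in cKO. Spans were taken from another genome build than the authors' and describe gene size only.

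**Figure D5:**
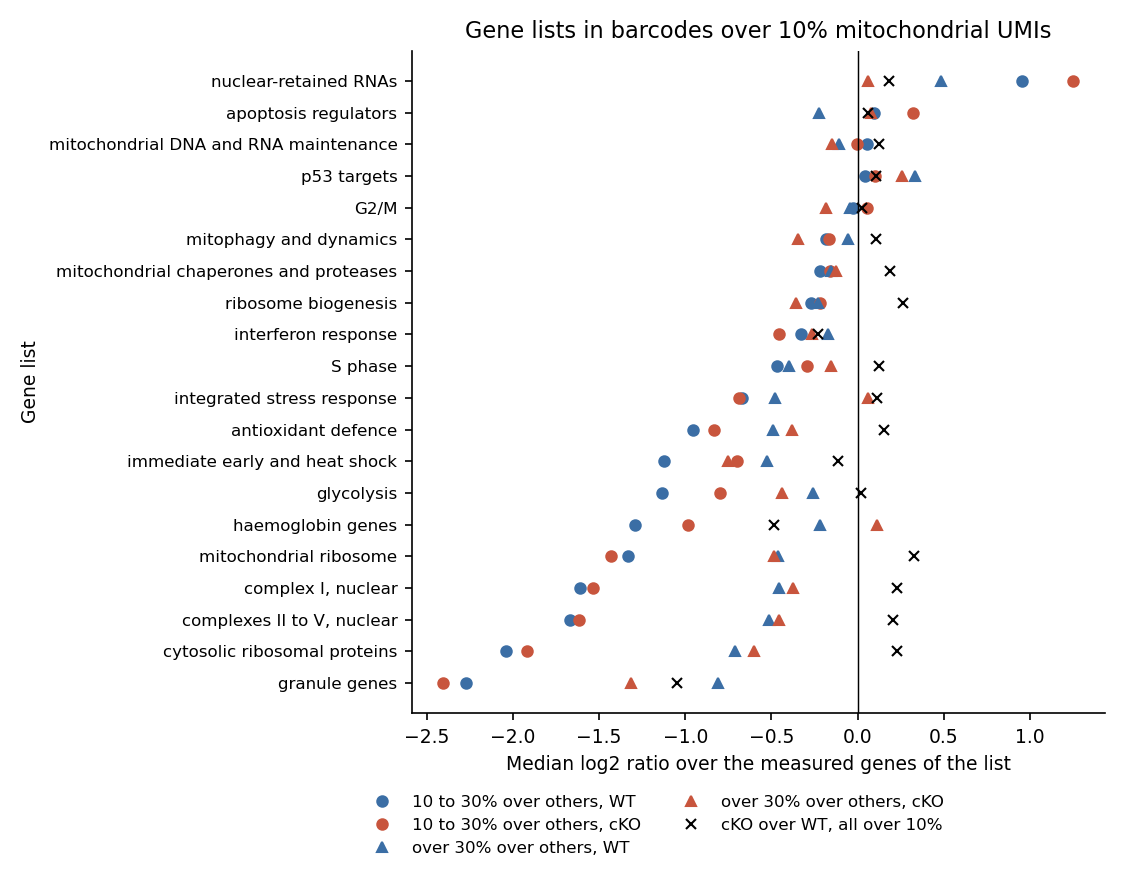
Median log2 ratio of summed UMIs over the measured genes of each list (horizontal axis) for each gene list (vertical axis): circles compare barcodes of 10 to 30% mitochondrial UMIs, and triangles those over 30%, with the remaining barcodes of the same library, and crosses compare cKO with WT over all high-mitochondrial barcodes. Granule, ribosomal protein and respiratory chain lists are lowest for the 10 to 30% barcodes, nuclear-retained RNAs are highest, and the cross farthest from 0 is that of the granule genes, at -1.05.

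Between genotypes, the nuclear RNA of high-mitochondrial barcodes differed in few genes. In cKO over WT, 4 of 4164 genes were at least 2-fold higher (0.0961%) and 20 at least 2-fold lower (0.48%). The remaining barcodes gave 3 and 19 of 4000 (0.075% and 0.475%). At 10 to 30%, 6 of 4209 genes were higher (0.143%) and 24 lower (0.57%), and over 30%, 7 of 808 were higher (0.866%) and 10 lower (1.24%). Nat10 itself stood at 71.4 CPM in WT (103 UMIs) and 70.9 in cKO (179 UMIs), log2 -0.01 (-0.37 to 0.35). In the remaining barcodes it stood at 47.8 and 39.2, log2 -0.29. A 3′ tag outside the excised part does not report on the deletion, so these values do not check the genotype. Thumpd1, the adaptor that guides Nat10 to tRNA, stood at 26.3 and 24.2 CPM.

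Of the 4 higher genes, Col1a1 and Col1a2, the chains of type I collagen, were highest. Col1a1 stood at 26.3 CPM in WT and 303 in cKO, log2 3.51 (3.05 to 4.03), and Col1a2 at 42.3 and 255, log2 2.58 (2.21 to 3.00). In cKO 1 barcode held 53.3% of the Col1a1 UMIs and 5 barcodes held 84.8%, and in WT 1 barcode held 50% of its 38 UMIs. The whole stromal list followed, at 238 and 815 CPM, and in cKO 1 barcode held 35.5% of it. Ctla2a, a protease inhibitor gene, stood at 29.8 and 91.9, with 65.1% of the cKO UMIs in 5 barcodes. Pcdh7, a protocadherin gene, stood at 36.7 and 92.3, log2 1.32, but at -0.028 with a threshold of 20% and -0.47 over 30%. Its WT UMIs came from 29 barcodes, 5 of which held 49.1%. The next in order, all under 2-fold, were Tjp1, Polr2j, Chchd10, Gps2, Creb3l2 and Mt1, with log2 ratios from 0.996 to 0.938. Their WT and cKO barcodes with a UMI numbered from 43 to 132 and from 123 to 356.

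Among the genes ranked, the 10 lowest in cKO had varied roles. Nrg1, a growth factor of the epidermal growth factor family, was lowest, at 107 CPM in WT and 12.7 in cKO, log2 -3.06 (-3.68 to -2.53). The remaining barcodes gave -2.79 for it. Ly6c2, a monocyte surface protein gene, stood at 174 and 49.9 (log2 -1.80, remaining barcodes -1.49), and Irf8, a monocyte and dendritic cell transcription factor gene, at 106 and 33.3 (-1.67, remaining -1.12). The basophil protease genes Mcpt8 and Prss34 were at -1.50 and -1.46, where the remaining barcodes had -0.46 and -0.23, but 1 WT barcode held 37.0% of the Mcpt8 UMIs. Cst3 was at -1.20 with 37.9% of its WT UMIs in 1 barcode. Xpo7, an exportin, stood at 177 and 71.3, with 25.9% of its WT UMIs in 1 barcode. S100a8, Laptm5 and Slc4a1, the red cell anion exchanger, were at -1.26, -1.43 and -1.23. The GMP list was lower as well, at 2643 and 1439 CPM, a ratio of 0.54 (0.52 to 0.57) beside 0.63 in the remaining barcodes. When cKO barcodes were weighted to the WT shares of the marker lists, 7 genes were at least 2-fold lower in place of 20.

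By list, cytosolic ribosomal protein genes were higher in cKO for 78 of 79 genes, with a median log2 ratio of 0.23, and none reached 2-fold. Mitochondrial ribosome genes were higher for 47 of 53 (median 0.33), complex I genes for 29 of 36 (0.23) and complex II to V genes for 34 of 39 (0.20). Over all genes with enough UMIs 59.0% were higher, with a median of 0.06. The remaining barcodes had medians of 0.22, 0.37, 0.23 and 0.25 for these 4 lists. Short genes in general were higher in cKO high-mitochondrial barcodes. Those under 3 kb had a median of 0.21, with 79.4% higher, and those of 3 to 10 kb 0.18, with 75.8%. The lists were not compared with genes of like span. Granule genes were lower for all 7 measured (median -1.05, remaining barcodes -0.24). Of these, 4 were at least 2-fold lower, beside 0.48% of all genes tested, at a higher floor of UMIs. Among the granule genes, Ctsg turned to 0.68 when cKO barcodes were weighted to the WT shares of the marker lists. Haemoglobin genes were lower for all 4 (-0.49, remaining -0.73), although Hba-a2 turned to 0.087 with that weighting and to 0.091 with a threshold of 20%. Apoptosis regulators, p53 targets and mitophagy genes had medians of 0.06, 0.11 and 0.11, with Bcl2l1, an inhibitor of apoptosis, lowest in the first at log2 -1.01, from 59 WT and 51 cKO UMIs.

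Within erythroid progenitor-placed high-mitochondrial barcodes, cKO over WT gave 13 of 4118 genes at least 2-fold higher (0.316%) and 7 lower (0.17%). The remaining erythroid progenitor-placed barcodes gave 1 of 3960 higher (0.0253%) and 6 lower (0.152%). Against those remaining barcodes of their own library, 1034 of 4144 genes were higher (25%) and 802 lower (19.4%) in WT, and 1396 of 4219 higher (33.1%) and 816 lower (19.3%) in cKO. All 79 ribosomal protein genes were higher in cKO in the high-mitochondrial ones, with a median log2 ratio of 0.47, where all genes had 0.05. The list had 0.18 in the remaining erythroid progenitor-placed barcodes. Short genes in general were higher in cKO in the high-mitochondrial ones. Those under 3 kb had a median of 0.39, with 83.5% higher, and those of 3 to 10 kb 0.29, with 80.8%. The depth of the high-mitochondrial ones was close between genotypes, at medians of 3648 and 3922 nuclear UMIs. The mitochondrial share was 17.1% in WT and 16.8% in cKO.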

How the data were processed

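Gene by barcode count matrices of 2 libraries, WT and cKO, were used as deposited. Per the submitters' processing notes, the authors made them with Cell Ranger 7.1.0 on mm39. The rule by which barcodes were kept is not given here. Rows that share a symbol were summed. Mitochondrial genes are those whose symbol starts with mt-. Nothing was normalised before deposit, and levels here are summed UMIs per 1000000 nuclear UMIs (CPM). A gene entered a comparison with at least 100 UMIs over the 2 sums together and a mean of 50 CPM over them. To each sum 0.5 was added, and 2-fold or more was called. Members of gene lists needed 50 UMIs. Named are the 10 highest and 10 lowest genes of each comparison, mitochondrial genes, Nat10, Thumpd1, Malat1, Neat1 and the extremes of each list. Left out of the ranking were unnamed gene models, immunoglobulin and T cell receptor segments, and the sex-linked transcripts Xist and Tsix. Other genes named were chosen after their values were seen. Intervals are 95% exact binomial, conditional binomial for ratios, and cover counting error only. Doublets were called with Scrublet in scanpy 1.11.5 on each library and kept. Gene spans came from an annotation of another build and matched 52125 of 56748 gene rows. Python 3.11.15, numpy 2.4.6, scipy 1.17.1 and pandas 2.3.3 were used. With 1 library per genotype no test was made. The comparison of sums was tested on simulated data. The group and lists were chosen with earlier results of these data known. The 30% boundary, the 3000 to 10000 window and the sums without Mllt3 and Ank1 were chosen after seeing the data. Some results are not reported here.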

Additional observations from a re-analysis of the deposited data

Results flagged for a closer look

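Both collagen genes and the stromal marker sum went in opposite directions in the libraries, and these differences were not tested. Col1a1 was higher in high-mitochondrial than in remaining barcodes in cKO, at log2 1.61, and lower in WT, at -1.64. Col1a2 was at 1.29 in cKO and -1.07 in WT. The stromal marker sum was 2.11 times that of the remaining barcodes in cKO and 0.86 times in WT. In cKO 1 barcode held 53.3% of the Col1a1 UMIs, 42.2% of the Col1a2 UMIs and 35.5% of the stromal sum, so these values rest on few barcodes.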

How the results depend on the processing

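No paired analysis was possible because each genotype has 1 library. The ratio of shares over 10%, 1.71, was 1.55 at a threshold of 20%, 1.90 with at least 1000 UMIs and 500 genes, and 1.47 with only protein-coding mitochondrial genes. Median UMIs, 1353 in WT and 1590 in cKO, were 3337 and 3678 with that filter and 1102.5 and 1151 at 20%. The mitochondrial ribosomal RNA share was 47.4% and 53.9% with each barcode alike. The percent placed with the erythroid progenitor list in WT and cKO was 12.1 and 12.7 when thinned, 24.8 and 39.8 with a lower score cut, 8.59 and 15.5 with a higher one, 37.5 and 50.6 with the filter and 55.1 and 72.6 at 3000 to 10000 nuclear UMIs. The ratio of that list's shares was 1.38 at 3000 to 10000. Genes at least 2-fold higher and lower than in remaining barcodes numbered 16 and 77 (WT) and 53 and 109 (cKO) with each barcode alike. A floor of 20 UMIs, which by construction lets in genes with few UMIs, gave 7178 and 2679, and 6976 and 2778. Centring gave 193 and 270 higher, matching on depth 438 and 495 lower, and leaving out Rn18s-rs5, Mir6236 and AY036118 898 higher in WT. For cKO over WT, higher and lower genes numbered 280 and 330 with that floor and 7 and 10 over 30%, with 16 higher with each barcode alike, 8 higher at 20% and 7 lower when reweighted to the WT lists. Directions turned as follows. Against remaining barcodes matched on depth, Malat1 was -0.085 and -0.18, mitochondrial chaperones 0.23 in WT, S phase 0.00034 and 0.16, and in cKO apoptosis -0.66 and ribosome biogenesis 0.28. Apoptosis in cKO was -0.19 with each barcode alike and -0.087 when centred. For cKO over WT, at 20% Pcdh7 was -0.028, Malat1 -0.10 and Hba-a2 0.091. Over 30% Pcdh7 was -0.47, Malat1 -0.33, Nfia -0.030, Lgals1 0.11, Polg2 0.025 and Yme1l1 0.080. With each barcode alike Malat1 was -0.036 and Lgals1 0.0096, and when reweighted Nfia was -0.22, Hba-a2 0.087 and Ctsg 0.68. The causes were not tested. Few UMIs per barcode limit the placements.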

Other observations

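The macrophage list stood at 1.54 (WT) and 1.66 (cKO) times the remaining barcodes. Its gene with most UMIs was Slc40a1 in both libraries, and C1qc and Cd5l had 0 UMIs in the cKO group. Over 30% the macrophage ratio was 1.98 in WT and 1.16 (0.72 to 1.78) in cKO. The conventional dendritic list stood at 1.36 and 1.39 times. Zbtb46, a transcription factor gene, led the dendritic list at 126 and 151 per 1000000 nuclear UMIs against 41.9 and 44.1. The antigen presentation gene Cd74 of the same list stood at 24.9 and 7.53 against 39.4 and 38.9. The plasma cell list stood at 0.30 and 0.18 times. The endothelial list stood at 4.61 times in WT and 1.44 times in cKO, and 1 WT barcode held 61.6% of its UMIs. The stromal placements had the opposite order of ribosomal protein RNA from the whole group. The few high-mitochondrial stromal barcodes, 5 in WT and 23 in cKO, had medians of 15.1% and 13.1% ribosomal protein UMIs. The remaining stromal barcodes had 5.31% and 4.16%. The high-mitochondrial ones were also shallower, with medians of 546 and 1070 nuclear UMIs against 4765.5 and 5835. The 2 sets were not compared at matched depth.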
